A study of Mus musculus with 9 samples.

Results

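The comparison is that of the distal part of the mouse small intestine, SI3, with its middle part, SI2, of 3 parts of equal length that were cut from the upper to the lower end. It rests on 6 of the 9 expression arrays of the series, 3 of SI3 and 3 of SI2, taken by the part named in the labels and paired by diet. The SI3 and SI2 groups share strain (C57Bl/6J), sex (male), age (9 weeks when the diets began), time on the diet (2 weeks) and tissue (scrapings of the mucosa), and differ in the part of the intestine. Every mouse ate much fat, and its source names the diet, HF-PO for palm oil, HF-OO for olive oil and HF-SO for safflower oil, while low-fat samples were not used here. For each diet and part the RNA of 6 animals was combined, so each group has 1 array per diet and SI3 and SI2 of one diet come from the same mice. The spread between mice inside a pool was not measured. The p-values rest on how differences between parts vary over the pools, each of another diet, in all 9 arrays. The series follows the effect of the type of dietary fat along the intestine, and this comparison asks what separates its middle from its distal end.

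The small intestine absorbs most fat, sugar and many micronutrients along its upper and middle length, while bile acids and vitamin B12 are taken back near its distal end. Bile acids enter ileal enterocytes through the transporter Slc10a2, are carried inside by Fabp6, leave through the Slc51a and Slc51b heterodimer, and activate the nuclear receptor Nr1h4 (FXR), which switches on the hormone Fgf15. Absorbed fatty acids instead bind carriers such as Fabp1, are rebuilt into triglyceride, and leave the cell in chylomicrons built on apolipoprotein B. In bulk mucosa fewer cells of a type and less RNA per cell cannot be told apart.

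The promoters of 4 genes on which the results turn are shown because members of their pathways moved together. Each is the 250 bases before the gene's start, 5′ to 3′ on the gene's strand, from RefSeq's GRCm38.p6 annotation, with a motif match in capitals. Fabp6 lies on chromosome 11 (chr11:43601563-43601812, minus strand). Its capitals mark a match to the inverted repeat bound by FXR, AGGTCANTGACCT, with 2 mismatches. A later stretch left in lower case, aggtgaataacct, also matches this repeat with 2 mismatches. Fabp1 (chr6:71199629-71199878, plus strand) and Cd36 (chr5:17835897-17836146, minus strand) carry matches to the direct repeat bound by PPAR and HNF4 receptors, AGGTCANAGGTCA, with 1 and 2 mismatches. Hmgcs1 (chr13:119690101-119690350, plus strand) carries a match to the sterol regulatory element, which SREBP factors bind, with 1 mismatch.
Fabp6: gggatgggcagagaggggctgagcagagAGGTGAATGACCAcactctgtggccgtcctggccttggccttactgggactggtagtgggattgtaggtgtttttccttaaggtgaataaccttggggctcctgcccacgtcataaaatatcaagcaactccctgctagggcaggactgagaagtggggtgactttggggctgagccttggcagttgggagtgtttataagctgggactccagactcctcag
Fabp1: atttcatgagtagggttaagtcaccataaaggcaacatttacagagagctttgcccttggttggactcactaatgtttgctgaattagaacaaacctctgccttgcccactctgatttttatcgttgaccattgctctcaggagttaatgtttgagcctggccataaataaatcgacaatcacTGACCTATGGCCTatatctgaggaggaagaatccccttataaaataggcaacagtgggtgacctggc
Cd36: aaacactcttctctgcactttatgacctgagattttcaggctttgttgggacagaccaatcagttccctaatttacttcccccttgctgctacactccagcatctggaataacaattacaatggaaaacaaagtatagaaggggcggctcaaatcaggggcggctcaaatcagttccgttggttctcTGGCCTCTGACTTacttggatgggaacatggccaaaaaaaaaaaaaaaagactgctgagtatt
Hmgcs1: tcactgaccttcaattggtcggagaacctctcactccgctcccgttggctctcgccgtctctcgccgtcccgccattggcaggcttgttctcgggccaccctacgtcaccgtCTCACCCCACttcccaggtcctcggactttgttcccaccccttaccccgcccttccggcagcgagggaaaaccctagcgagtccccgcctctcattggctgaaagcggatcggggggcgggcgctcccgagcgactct

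Both strands of all 32851 promoters in that table were searched. The inverted repeat occurred within 2 mismatches in 0.959% of them, the direct repeat within 2 mismatches in 3.24%, and the sterol element within 1 mismatch in 1.65%. These are shares of promoters, while the list counts that follow are of genes. A gene with several promoters counts if any of them matches, so the 2 rates are of unlike units. Of the genes with a promoter in the table, the direct repeat was found in 6 of 21 of the fat uptake list (Apoc2, Cd36, Creb3l3, Fabp1, Pla2g12b and Plin2), and the sterol element in 3 of 16 of the cholesterol synthesis list (Hmgcs1, Nsdhl and Srebf2). The direct repeat was also found in 3 of 16 peroxisomal, 1 of 17 mitochondrial oxidation and 1 of 7 bile acid genes, and in 0 of 16 of cholesterol synthesis. The sterol element was found in 2 of 7 bile acid genes, Fabp6 and Slc51b. The inverted repeat was found in 1 of 7 bile acid genes, Fabp6, and in 2 of 16 peroxisomal ones. Both repeats are built from the same receptor half-site, and the matches only describe these windows.

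The values are MAS5 signals, a linear measure of intensity that the authors deposited for 45037 probe sets besides array controls. The medians of the 6 arrays lay between 94.4 and 105.5 and their upper quartiles between 448.5 and 472.3, and the 3′ to 5′ signal ratio of the beta-actin control lay between 1.19 and 1.27. Differences are of log2(signal + 16), which understates the change of genes of low signal. With limma and Benjamini-Hochberg adjustment, 5138 of 45037 probe sets (11.4%) passed an adjusted p of 0.05, 2506 higher in SI3 (5.56%) and 2632 lower (5.84%). Taking the brightest probe set of each gene, 2830 of 18193 genes passed (15.6%), 1388 higher (7.63%) and 1442 lower (7.93%). Every count of list members below is to be read beside these shares of all genes. Changes of 2-fold or more were found in 201 of the higher genes (1.10% of genes) and 449 of the lower ones (2.47%), and the median gene differed by 0.01. The direction was the same in all 3 pools for 2828 of the 2830 genes, but the test favours genes whose pools agree. The SI3 and SI2 signals did not overlap for 32.6% of genes. The count depends on the pools and on the variance model: 2280 genes passed without the HF-PO pool, 1142 without HF-OO and 1727 without HF-SO, and 964 when the variance was not allowed to depend on the signal.

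**Figure D1:**
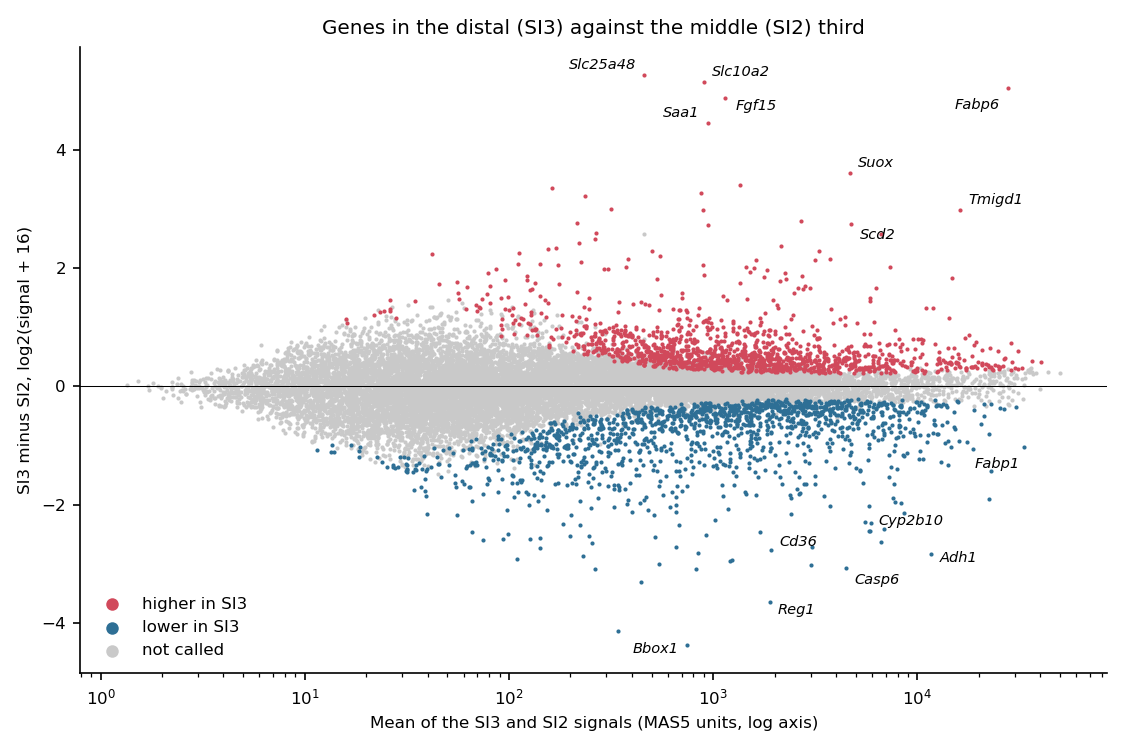
Each point is 1 of 18193 genes, with the mean of its SI3 and SI2 signals on a log axis and the log2 difference, SI3 minus SI2, on the vertical axis. The 1388 genes higher in SI3 and the 1442 lower ones are coloured, and Fabp6 stands apart as both very bright and strongly higher in SI3.

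The 15 genes that rose most had log2 differences of 2.77 or more, and Slc25a48 led them. Slc25a48, a carrier of the mitochondrial inner membrane, had signals of 894, 978 and 862 in the HF-PO, HF-OO and HF-SO pools of SI3, against 5.2, 10.8 and 9.1 in SI2, a log2 difference of 5.26 (SE 0.28, adjusted p = 9.02e-07). Its SI2 signals were near the bottom of the scale and no SI3 array came close to them.

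Suox, sulfite oxidase, which turns sulfite into sulfate in mitochondria, had signals of 7858, 8819.6 and 9203 in SI3, against 768, 703 and 616 in SI2, a log2 difference of 3.60 (SE 0.10, adjusted p = 9.37e-09). Tmigd1, a membrane protein of the brush border, had 26818, 29361 and 29666 in SI3, against 3569, 3297 and 4019 in SI2, a log2 difference of 2.98 (SE 0.07, adjusted p = 9.37e-09). Mgat4c, named as a member of an N-glycan branching family, had 4252, 4903 and 5018 in SI3 and 595, 685 and 735 in SI2. Its 3 pool differences lay within 0.07 of each other. These 3 genes were already measurable in SI2 in every pool, and their groups did not overlap.

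Saa1, an acute phase apolipoprotein that intestinal epithelium makes in response to bacteria, had 2654, 1198 and 1611 in SI3 and 79.1, 44.6 and 71.1 in SI2, a log2 difference of 4.45 (SE 0.20, adjusted p = 3.4e-07). Nos2, inducible nitric oxide synthase, had 295, 322 and 312 in SI3, against 16.8, 9.8 and 22.4 in SI2, a log2 difference of 3.35 (SE 0.31, adjusted p = 3.49e-05). Trpm6, the apical magnesium channel, had 1429, 1972 and 1390.3 in SI3, against 137, 200.2 and 231 in SI2. The remaining largest rises were those of Slc10a2, Fabp6 and Fgf15, described with the bile acid genes, and of 1810065E05Rik, Bex1, Slc6a14, Lpcat4 and Ttc36, with log2 differences between 2.77 and 3.40. Slc6a14 imports neutral and basic amino acids. All 15 passed whichever pool was left out, but they were picked for large differences on these same arrays, so this adds no separate support.

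The largest fall was that of Bbox1, the enzyme of the last step of carnitine synthesis, with signals of 125, 11.5 and 68.4 in SI3 and 1664, 1322 and 1268 in SI2, a log2 difference of -4.37 (SE 0.32, adjusted p = 6.62e-06). Reg1, a secreted C-type lectin family protein, had 223, 302 and 273 in SI3 and 3168, 4275 and 3078 in SI2, a log2 difference of -3.64 (SE 0.10, adjusted p = 9.37e-09). Casp6, an executioner caspase, had 1169, 879.5 and 815 in SI3 and 8642, 7815 and 7574 in SI2, a log2 difference of -3.06 (SE 0.09, adjusted p = 1.67e-08). Every SI3 array was lower than every SI2 array.

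Adh1, alcohol dehydrogenase, which also oxidises retinol, had 3745, 2705 and 2341 in SI3 and 20999, 21424 and 19049.8 in SI2, a log2 difference of -2.83 (SE 0.13, adjusted p = 3.72e-07). Ckb, brain-type creatine kinase, had 886, 583 and 517 in SI3 and 5308, 5404 and 5315 in SI2. Onecut2, a transcription factor of the upper intestine, had 70.9, 15.4 and 4.4 in SI3, against 573, 744 and 648 in SI2, a log2 difference of -4.13 (SE 0.35, adjusted p = 1.82e-05). The others were Cyp2c29, Dnah2, Mcoln3, Cym, Ces2g, H2-Q10, Csf2, Ccl24 and Gstm6, with log2 differences between -3.30 and -2.82. Csf2 and Ccl24 encode cytokines, Cyp2c29, Ces2g and Gstm6 belong to detoxification families, and Cym is the milk-clotting protease chymosin. The groups did not overlap for any of the 15, and all 15 passed whichever pool was left out. These genes too were picked for large differences on the same arrays, so this is a description.

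**Figure D2:**
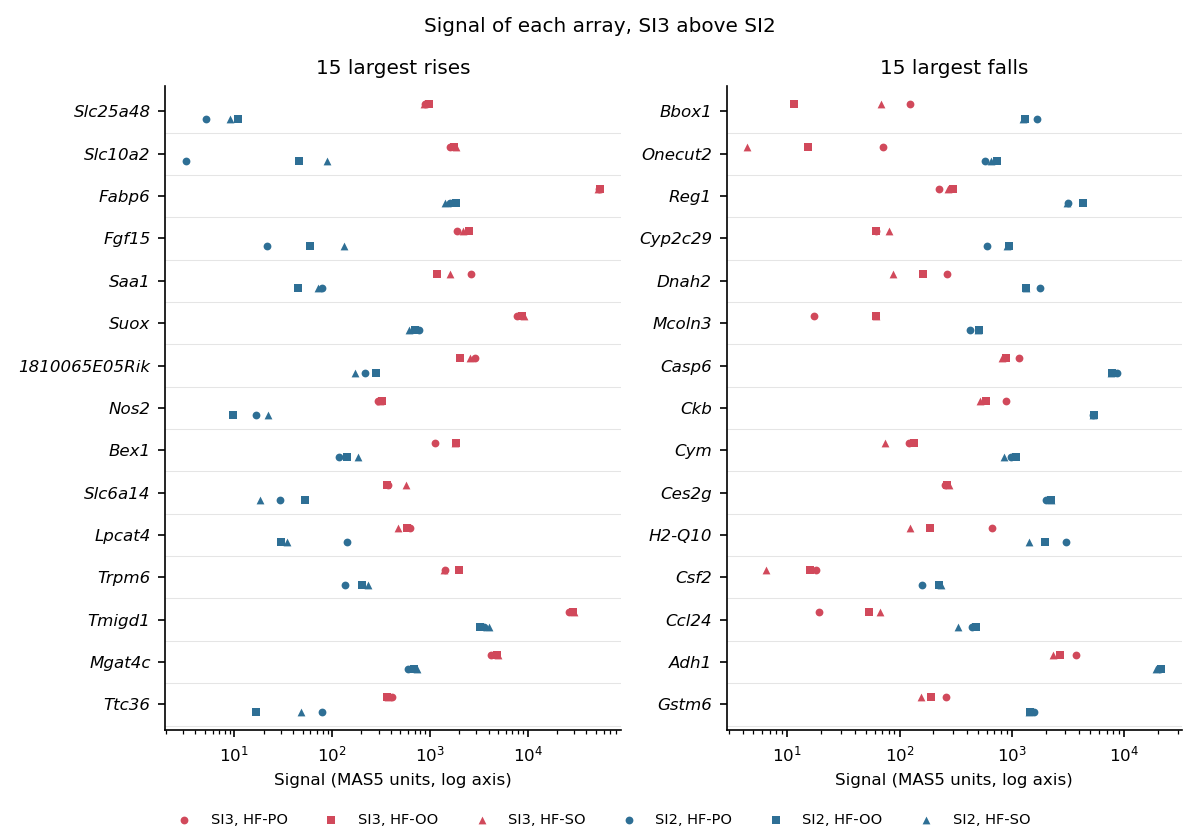
Signals of single arrays on a log axis for the 15 genes that rose most and the 15 that fell most, with SI3 in red above SI2 in blue and 1 marker shape per diet pool. SI3 and SI2 points do not overlap for any of the 30 genes, which were picked for large differences on these arrays. The SI2 signals of Slc10a2 spread from 3.2 to 88.0.

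All 9 measured genes of bile acid handling passed the test, 6 higher and 3 lower, against 15.6% of all genes. Their median log2 difference was 1.49, against 0.01 over all genes. The 6 that rose take up, carry, export or sense bile acids or signal their return. Those that fell export conjugates or act on the feedback. Each passed whichever pool was left out.

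The importer Slc10a2 had signals of 1598, 1778 and 1871 in SI3 and 3.2, 45.7 and 88.0 in SI2, a log2 difference of 5.15 (SE 0.38, adjusted p = 7.46e-06). Fabp6, whose promoter is shown above, had 54148, 54913 and 52117 in SI3 and 1605, 1852 and 1424 in SI2, a log2 difference of 5.04 (SE 0.23, adjusted p = 3.51e-07). Its SI3 signal was the highest of any probe set on 1 of the 6 arrays, and compression near the maximum of an array was not tested. The SI3 values of both genes lay close together, while the SI2 values of Slc10a2 differed widely between pools.

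Fgf15, which reaches the liver and restrains bile acid synthesis there, had 1882, 2533 and 2207 in SI3, against 21.4, 60.2 and 133 in SI2, a log2 difference of 4.88 (SE 0.36, adjusted p = 6.51e-06). The receptor Nr1h4 had 2143, 2453 and 2364 in SI3 and 612, 555 and 522 in SI2, a log2 difference of 2.01 (SE 0.10, adjusted p = 4.46e-07). In the HF-PO pool, Slc10a2 and Fgf15 were each lowest in SI2, with signals of 3.2 and 21.4.

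The basolateral exporter subunits rose less. Slc51a averaged 17117 ± 398 in SI3 and 6811 ± 435 in SI2 (SD, n = 3 pools), a log2 difference of 1.33 (SE 0.08, adjusted p = 1.28e-06). Slc51b averaged 8604 ± 509 in SI3 and 3065 ± 354 in SI2, a log2 difference of 1.49 (SE 0.09, adjusted p = 2.1e-06). Of the genes that fell, the apical conjugate exporter Abcc2 had 1984, 1752 and 1400.2 in SI3 and 3186, 3747 and 3281 in SI2, 1.99-fold lower (adjusted p = 9.89e-05). Abcc3, its basolateral relative, differed by -0.73 (adjusted p = 0.000278). Nr0b2 (SHP), a repressor that FXR switches on in liver, had 201, 176 and 137 in SI3 and 401, 365 and 280.3 in SI2, a log2 difference of -0.96 (SE 0.14, adjusted p = 0.000914). Nr1h4 and Nr0b2 thus moved in opposite directions in every pool.

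Most measured genes of cholesterol synthesis rose. Of 20 measured, 14 were higher in SI3 (7.63% of all genes were) and 1 lower, with a median log2 difference of 0.73. Squalene epoxidase, Sqle, had signals of 4051, 4475 and 3995 in SI3 and 1229, 1336 and 1427 in SI2, a log2 difference of 1.64 (SE 0.12, adjusted p = 5.31e-06). Fdft1, squalene synthase, had 3002, 2815 and 2863 in SI3 and 960.0, 1067 and 1095 in SI2, a log2 difference of 1.46 (SE 0.08, adjusted p = 9.89e-07). Cyp51, which removes a methyl group from lanosterol, had 2617, 2738 and 2256 in SI3 and 1071, 974 and 1159 in SI2. For each of them the lowest SI3 array lay above the highest SI2 array.

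Upstream of squalene, Hmgcs1, which makes HMG-CoA and whose promoter is shown above, had 12024, 12053 and 12249.6 in SI3 and 6395, 6772 and 7804 in SI2, a log2 difference of 0.80 (SE 0.07, adjusted p = 2.3e-05). Idi1, Fdps and Mvk, also enzymes of the isoprenoid steps, rose by 0.88, 1.03 and 0.95 on the log2 scale. Tm7sf2, Nsdhl, Hsd17b7 and Msmo1, of the later sterol steps, rose by 1.00, 0.73, 0.78 and 0.69. Dhcr7, Ebp and Sc5d, also of the later steps, did not pass, at -0.02, 0.19 and 0.12, nor did Mvd at 0.37. Among the higher genes, Lss and Stard4 lost their calls whichever pool was left out. The transcription factor gene Srebf2 differed by 0.35 (adjusted p = 0.14) and did not pass. The exception in direction was Insig1, which holds the SREBP complex in the endoplasmic reticulum when sterols are plentiful, with 956, 957 and 956 in SI3 and 1574, 1615 and 1528 in SI2, a log2 difference of -0.71 (SE 0.09, adjusted p = 0.000321). Without the HF-PO, HF-OO and HF-SO pools in turn, 11, 12 and 12 genes were higher.

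Sterol uptake and efflux showed no such rise: of 7 genes, 4 fell, and the median was -0.42. Npc1l1, the apical cholesterol importer, had 18549.5, 17558 and 16803 in SI3 and 16904, 18908 and 17603 in SI2, and its groups overlapped. Scarb1, a lipoprotein receptor, had 121, 124 and 122 in SI3 and 371, 322 and 489 in SI2, a log2 difference of -1.55 (SE 0.13, adjusted p = 1.59e-05). Apoe and the efflux transporter subunit Abcg8 differed by -0.77 and -0.47, and both passed, as did the oxysterol receptor gene Nr1h3 at -0.42 (adjusted p = 0.0107), whose call was lost whichever pool was left out.

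Fatty acid synthesis was split, with 7 of 14 genes higher in SI3 and 4 lower. Scd2, a stearoyl-CoA desaturase, had 10421, 9284 and 4889 in SI3 and 1610.2, 1759 and 532 in SI2, a log2 difference of 2.74 (SE 0.13, adjusted p = 4.16e-07). Within each part its HF-SO signal was the lowest. Elovl5 and Fads2, which lengthen and desaturate polyunsaturated fatty acids, rose by 1.09 (SE 0.07) and 1.09 (SE 0.14) on the log2 scale. Fasn, fatty acid synthase, and Acaca, acetyl-CoA carboxylase, rose by 0.97 (SE 0.14) and 0.96 (SE 0.13). Me1, malic enzyme, which supplies NADPH, went the other way with 1004, 401 and 294 in SI3 and 3568, 2421 and 2523 in SI2, a log2 difference of -2.46 (SE 0.19, adjusted p = 9.07e-06). Of the 4 lower genes, Fads1, Mlxipl and Srebf1 lost the call without HF-OO, and 2 of these also without HF-SO.

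Genes of fat uptake and chylomicron assembly were lower in SI3. Of 26 measured, 18 fell (7.93% of all genes did) and 8 did not pass, with a median log2 difference of -0.35. Cd36, a fatty acid receptor of the apical membrane, had signals of 675, 406 and 383 in SI3 and 3749.9, 3169.7 and 3072 in SI2, a log2 difference of -2.77 (SE 0.10, adjusted p = 5.88e-08). Slc27a2, a very long chain acyl-CoA synthetase, had 2303, 1159 and 1198 in SI3 and 6365, 5112 and 4678 in SI2, a log2 difference of -1.85 (SE 0.12, adjusted p = 2.36e-06). Apob, the protein frame of the chylomicron, had 4884, 6064 and 4823 in SI3 and 11368, 12674 and 11040.4 in SI2, a log2 difference of -1.16 (SE 0.07, adjusted p = 2.46e-06). In all 3 genes the groups were well apart.

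Triglyceride synthesis and storage followed, with Dgat2, which makes triglyceride, at -0.82 (adjusted p = 0.000994), a call lost without HF-OO, and the droplet coat protein Plin2 at -0.89 (adjusted p = 6.04e-05). Creb3l3, a membrane-bound transcription factor of apolipoprotein genes, differed by -0.83 (adjusted p = 0.000199). Mttp, which loads lipid onto apolipoprotein B, had 18949, 13733 and 15738 in SI3 and 24805, 24929 and 25245 in SI2, a log2 difference of -0.64 (SE 0.10, adjusted p = 0.00112), a call lost without HF-OO. The fatty acid carrier Fabp2, the apolipoproteins Apoa1 and Apoa4 and the acyltransferases Mogat2 and Dgat1 did not pass. Apoa1 was the brightest probe set on 3 of the 6 arrays and Fabp2 reached 87.8% of an array's maximum, and compression of these 2 genes was not tested. Without HF-PO, HF-OO and HF-SO in turn, 22, 7 and 10 genes of the list were lower, and 5 were lower in limma without a variance trend.

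The size of the fall differed between diet pools. Fabp1, the liver-type fatty acid carrier, had 37792, 17101 and 14700.2 in the HF-PO, HF-OO and HF-SO pools of SI3, against 42647, 43939 and 43212 in SI2, a log2 difference of -1.03 (SE 0.27, adjusted p = 0.0292). Its SI2 signals were nearly equal, while the SI3 signal of HF-PO was more than that of the other 2 pools added together. Fabp1 reached 97% of an array's maximum signal, and compression near that maximum was not tested. The pool differences of Fabp1 were -0.17, -1.36 and -1.55, and its call was lost without HF-OO or without HF-SO.

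Apoc2, the cofactor of lipoprotein lipase, had 19985, 7921 and 4789.9 in SI3 and 34164, 34995 and 32968 in SI2, a log2 difference of -1.90 (SE 0.32, adjusted p = 0.00251), and its call was lost without HF-OO. Apoc3, which slows that lipase, had 16203, 10602 and 10239 in SI3 and 25729.8, 25718 and 23692 in SI2, a log2 difference of -1.05 (SE 0.15, adjusted p = 0.00074). Again the SI2 signals lay close together and the palm oil pool stood highest in SI3. Of the 18 lower genes of this list, 15 fell least in HF-PO, 3 in HF-OO and none in HF-SO. Over all 1442 lower genes, HF-PO had the smallest fall in 46.7%. Each diet has 1 array per part, so these orders are descriptions with no test.

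Oxidation of fatty acids showed the same direction. In mitochondria 9 of 19 genes fell, with a median of -0.23, and in peroxisomes and omega oxidation 13 of 20, with a median of -0.60. Pdk4, a kinase that turns pyruvate dehydrogenase off when fat is burned, had 664, 159 and 126 in SI3 and 2113, 1424 and 1025 in SI2, a log2 difference of -2.52 (SE 0.26, adjusted p = 8.51e-05). The thioesterase Acot1 had 176, 82.1 and 103 in SI3 and 661, 452 and 479 in SI2, a log2 difference of -2.04 (SE 0.20, adjusted p = 6.25e-05). Crat, carnitine acetyltransferase, had 888, 647 and 636 in SI3 and 1925, 1666 and 1503 in SI2, a log2 difference of -1.22 (SE 0.08, adjusted p = 2e-06). Every SI3 signal of these genes was under every SI2 signal.

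Acaa1b, a peroxisomal thiolase, had 2799, 644 and 671 in SI3 and 5454, 3561 and 2745 in SI2, a log2 difference of -1.80 (SE 0.23, adjusted p = 0.000399). Its HF-PO signal in SI3 was above the HF-SO signal in SI2, so the groups overlapped although it was lower in SI3 in each pool. The mitochondrial thiolase Acaa2 fell by 0.97 and the long chain dehydrogenase Acadl by 0.70, the second call being lost without HF-OO. Cpt1a, which admits fatty acids to mitochondria, had 4112, 4035 and 4109.9 in SI3 and 3646, 3650.2 and 3345 in SI2 and did not pass (adjusted p = 0.0927). The fall was smallest in HF-PO for 7 of the 9 lower mitochondrial genes and 11 of the 13 lower peroxisomal ones. Without HF-OO, 4 mitochondrial and 10 peroxisomal genes were lower. Of 6 carnitine genes Bbox1 alone passed, and the plasma membrane carnitine transporter Slc22a5 differed by 0.05.

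**Figure D3:**
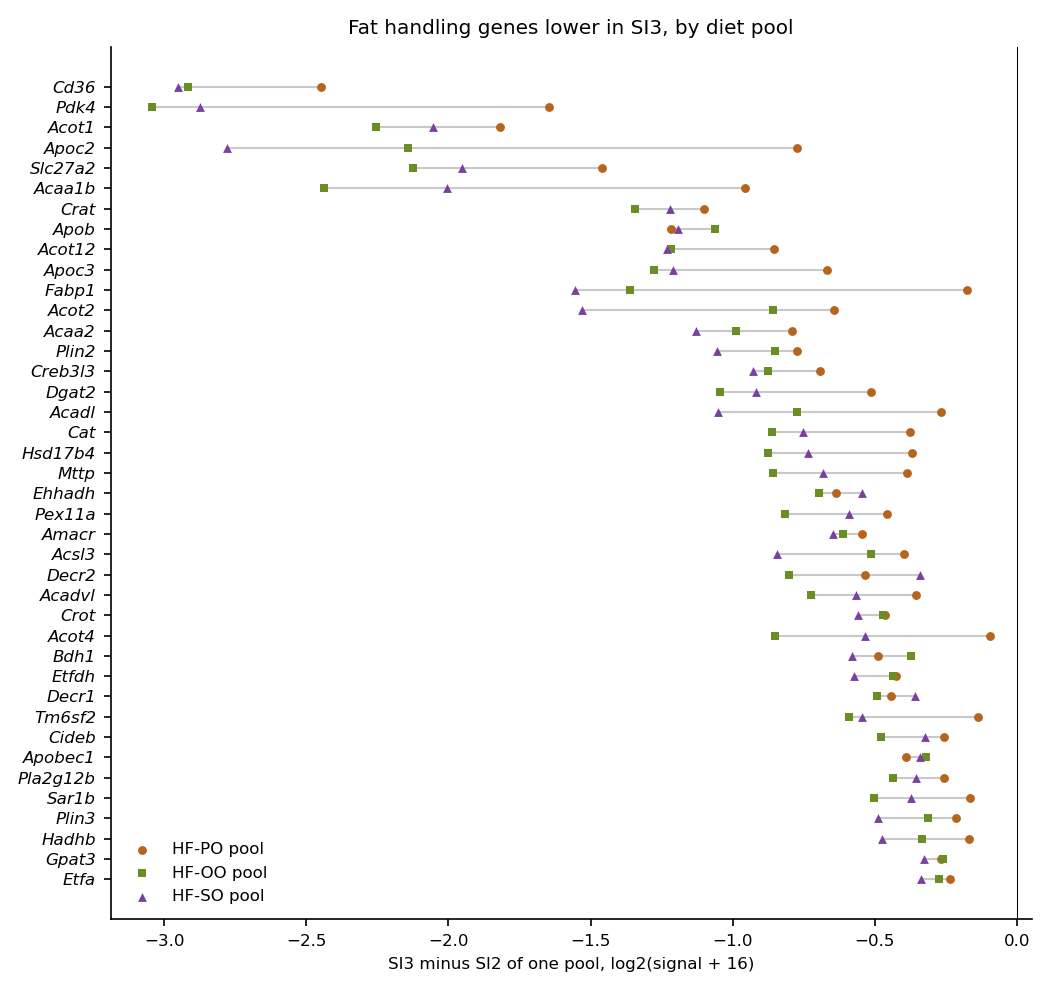
The log2 difference, SI3 minus SI2, of each diet pool for the 40 genes of fat uptake, mitochondrial and peroxisomal oxidation that were lower in SI3, with 1 marker per pool joined by a line. The HF-PO marker is nearest 0 for most of them, and for Fabp1 it lies at -0.17, against -1.36 in HF-OO and -1.55 in HF-SO.

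Sugar digestion, transport and gluconeogenesis had the lowest median of the 32 pathway lists, -1.19, and 10 of its 12 measured genes fell. Slc2a2, the glucose and fructose carrier GLUT2 of the basolateral membrane, had signals of 3858, 3452 and 2293 in SI3 and 14969, 15630.0 and 11442 in SI2, a log2 difference of -2.15 (SE 0.14, adjusted p = 2.54e-06). Slc2a5, the apical fructose carrier, had 1484, 1371 and 1129 in SI3 and 5654, 4387 and 2968 in SI2, a log2 difference of -1.66 (SE 0.13, adjusted p = 1.34e-05). Pck1, of gluconeogenesis, had 1514, 1022 and 634 in SI3 and 4275, 4397 and 2430.0 in SI2, a log2 difference of -1.83 (SE 0.12, adjusted p = 3.17e-06). Groups did not overlap for these 3 genes.

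Fbp1 and G6pc, later gluconeogenic enzymes, differed by -1.65 (SE 0.10) and -1.31 (SE 0.17), and Khk, which phosphorylates fructose, by -0.83 (SE 0.08). The disaccharidase Treh had 6068, 3807 and 3461 in SI3 and 12957, 11559 and 9825 in SI2 (adjusted p = 3.45e-05), and Lct, lactase, fell by 0.80. Slc5a1, the sodium-coupled glucose carrier, had 24089.6, 23026 and 21787 in SI3 and 26398, 28651 and 27164 in SI2 and did not pass (adjusted p = 0.118), nor did the maltase Mgam at 0.03. Between 9 and 10 genes were lower whichever pool was left out.

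The brush border peptidases went both ways: 5 of 10 rose and 2 fell (7.63% and 7.93% of all genes did). Mep1a, the alpha subunit of meprin, had 22368, 24817 and 22186 in SI3 and 6341, 6722 and 6275 in SI2, a log2 difference of 1.84 (SE 0.06, adjusted p = 4.2e-08). Xpnpep2, an aminopeptidase that frees residues ahead of proline, had 8642, 8525 and 8475 in SI3 and 3125, 3445 and 2885 in SI2, a log2 difference of 1.44 (SE 0.07, adjusted p = 5.38e-07). Mme, neprilysin, fell, with 4151, 3574 and 3453 in SI3 and 10704, 12052 and 12365 in SI2, a log2 difference of -1.65 (SE 0.10, adjusted p = 1.82e-06). Ace, which trims dipeptides, fell by 1.22. Without HF-OO or HF-SO 3 peptidases were higher, since Anpep and Enpep, each about 0.3 higher on the log2 scale, lost their calls.

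Amino acid and peptide transporters were split, 4 of 13 higher and 6 lower. Slc1a1, the apical glutamate and aspartate carrier, had 3217, 3798 and 3683 in SI3 and 1001, 1049.8 and 936 in SI2, a log2 difference of 1.82 (SE 0.15, adjusted p = 1.73e-05). Slc36a1, a proton-coupled carrier of small amino acids, had 1263, 941 and 959.7 in SI3 and 3561, 3242 and 3117 in SI2, a log2 difference of -1.64 (SE 0.09, adjusted p = 1.08e-06). The basolateral carrier Slc7a8 fell by 1.27. The peptide carrier Slc15a1 overlapped between the parts and differed by -0.24 (adjusted p = 0.166). Without the HF-OO pool 1 transporter was higher and 3 were lower, and without HF-SO 2 and 4. Of 10 genes of citrulline and arginine metabolism 3 fell, led by Arg2, mitochondrial arginase, at -1.02 (adjusted p = 8.34e-05). Of 4 genes of intestinal lipid digestion 2 rose and 1 fell, and the call of Clps, colipase, 1 of the 2, was lost without HF-OO or HF-SO. Plb1, the brush border phospholipase, had 13025, 12079.5 and 10181 in SI3 and 3280.1, 2535 and 2824 in SI2, a log2 difference of 2.02 (SE 0.14, adjusted p = 3.72e-06).

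Among 17 vitamin genes, 5 rose and 9 fell (7.63% and 7.93% of all genes did). The 2 receptor subunits for vitamin B12, Cubn and Amn, were higher in SI3, Cubn with 19814, 18519 and 17311 in SI3 and 12493, 12335 and 10499 in SI2, a log2 difference of 0.66 (SE 0.09, adjusted p = 0.000625), and Amn at 0.27 (adjusted p = 0.0258), a call lost whichever pool was left out. Slc52a3, a riboflavin carrier, rose by 1.14 (SE 0.07) and Slc5a6, which carries biotin and pantothenate, by 0.89 (SE 0.09). Slc46a1, the proton-coupled folate carrier, had 821, 835 and 716 in SI3 and 4892, 5994 and 4956 in SI2, a log2 difference of -2.71 (SE 0.08, adjusted p = 1.67e-08). Its SI3 signals were far below its SI2 signals in every pool.

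Slc23a1, the ascorbate carrier, had 1297, 896 and 525 in SI3 and 4036, 4149 and 3442 in SI2, a log2 difference of -2.16 (SE 0.16, adjusted p = 6.06e-06). The thiamine carrier genes Slc19a2 and Slc19a3 fell by 0.77 and 1.93. Of retinoid genes, Rbp2, the retinol carrier of enterocytes, had 22810.2, 9566 and 8022 in SI3 and 32934, 33051 and 31351 in SI2, a log2 difference of -1.43 (SE 0.26, adjusted p = 0.00382), a call lost without HF-OO. Rbp2 shared the pool order of Fabp1 and Apoc2, with nearly equal SI2 signals and the palm oil pool highest in SI3. Bco1, which cleaves beta-carotene, was lowest in the HF-PO pool of both parts, with 195, 734 and 413 in SI3 and 442, 1497 and 1186 in SI2, a log2 difference of -1.20 (SE 0.11, adjusted p = 2.69e-05), so that the groups overlapped although each pool was lower in SI3.

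Of 21 mineral genes 8 rose and 2 fell (7.63% and 7.93% of all genes did), so the count that fell is near the background. Slc40a1, the iron exporter ferroportin, had 1604, 1288 and 1443 in SI3 and 345, 310.3 and 347 in SI2, a log2 difference of 2.06 (SE 0.10, adjusted p = 5.11e-07). Trpm6, given above, had a log2 difference of 2.98 (SE 0.21). Slc34a2, the phosphate carrier, rose by 1.33 (SE 0.19), and the zinc importer Slc39a4 by 0.53 (SE 0.07). Slc20a1, another phosphate carrier, fell by 0.93. The calcium channel Trpv6 and the calcium-binding protein S100g stayed at signals under 113 and did not pass, while the pump Atp2b1 rose by 0.81 (SE 0.08). Mt2, the other gene that fell, lost its call without HF-OO or HF-SO.

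Genes of xenobiotic metabolism were mostly lower, 16 of 24 fell and 3 rose, with a median of -0.80. Cyp2b10 had 1991, 1817 and 1608 in SI3 and 9677, 10747 and 9246 in SI2, a log2 difference of -2.45 (SE 0.08, adjusted p = 4.2e-08). Nr1i3 (CAR), a receptor that switches on Cyp2b10 in liver, had 652, 436 and 354 in SI3 and 2046, 1708 and 1484 in SI2, a log2 difference of -1.86 (SE 0.14, adjusted p = 9.17e-06). The other xenobiotic receptor, Nr1i2 (PXR), did not pass, at -0.18 (adjusted p = 0.291). The 3 pools gave both genes that fell a clear gap between the parts.

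Gstm3, a glutathione transferase, had 3662, 2401 and 3636 in SI3 and 12161, 13004 and 11857 in SI2, a log2 difference of -1.95 (SE 0.14, adjusted p = 5.29e-06). Gstm1, Gsta3 and Gsta4 fell by 1.84, 1.65 and 0.94, and Cyp3a11 and Cyp3a25 by 0.92 and 0.92. The apical drug efflux pumps ran against the list: Abcg2 rose by 0.67 (SE 0.08) and Abcb1a by 0.42 (SE 0.07), as did the cytochrome Cyp2c55 by 0.82 (SE 0.10). Members of these families have similar sequences, so a probe set may also detect a relative. Counts of lower genes ran between 14 and 15 when 1 pool was left out.

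Of 10 genes of sulfur oxidation 5 rose and 1 fell. Besides Suox, Tst, rhodanese, had 806, 1185 and 945 in SI3 and 333, 409 and 415 in SI2, a log2 difference of 1.30 (SE 0.17, adjusted p = 0.000454). Cdo1, which oxidises cysteine, rose by 0.92 (SE 0.15), Ethe1, a persulfide dioxygenase, by 0.54 (SE 0.08), and Sqor, which oxidises sulfide, by 0.42 (SE 0.06). The gene that fell, Gclm, is a subunit of the enzyme of glutathione synthesis, at -0.57 (adjusted p = 0.000963). These counts were 5 and 1 whichever pool was left out.

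Epithelial defence genes rose in 7 of 14 cases and fell in 2. The probe set of Saa2 was higher too, with 236, 164 and 203 in SI3 and 39.5, 40.5 and 49.9 in SI2, a log2 difference of 1.86 (SE 0.29, adjusted p = 0.00156). The probe sets of Saa1 and Saa2 are of types that can detect related RNAs, so each may also detect the other gene. Reg3g, an antibacterial lectin, had 36976, 35759.9 and 34976 in SI3 and 23175, 17459.6 and 24483 in SI2, a log2 difference of 0.74 (SE 0.10, adjusted p = 0.000456), while the related Reg3a fell by 0.80. Il18, a cytokine of epithelial cells, fell by 0.84. Pla2g2a, a secreted phospholipase of Paneth cells whose coding frame is disrupted in C57BL/6 strains, rose by 1.08 (SE 0.14).

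Markers of Paneth and goblet cells moved with these genes. All 4 measured Paneth markers were higher in SI3 (Lyz1, Mmp7, Ang4 and Itln1), with a summed signal of 89975 to 106461 in SI3 and 62584 to 67481 in SI2. Mmp7, which activates defensins, had 3433, 4816 and 4568 in SI3 and 1886, 2237 and 2482 in SI2, a log2 difference of 0.95 (SE 0.13, adjusted p = 0.000785), and 2 of the 4 passed without HF-OO. Of 9 goblet markers 7 were higher, with sums of 197032 to 210523 in SI3 and 147497 to 151933 in SI2. The mucin Muc2 had 36799, 39450.2 and 36094 in SI3 and 24383, 24755 and 25221 in SI2, a log2 difference of 0.59 (SE 0.07, adjusted p = 0.000333), and the transcription factors Spdef and Atoh1 rose by 0.88 (SE 0.12) and 0.69 (SE 0.09). Their part in the defence genes was not tested.

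Antigen presentation genes of MHC class II were higher for 5 of 6 measured, with a median of 0.81. Cd74, the invariant chain, had 23476, 20705 and 21266 in SI3 and 12748, 11970.2 and 12236 in SI2, a log2 difference of 0.82 (SE 0.07, adjusted p = 2.02e-05). H2-Ab1 and H2-Aa rose by 0.89 (SE 0.07) and 0.80 (SE 0.07), and the peptide loader H2-DMa by 0.99 (SE 0.09). Ciita, the class II transactivator, did not pass, at 0.26 (adjusted p = 0.435). The 5 calls held whichever pool was left out. B cell markers moved the same way, 5 of 11 higher, with a summed signal of 3177 to 3902 in SI3 and 1809 to 2463 in SI2, though 1 passed without HF-OO. Macrophage markers, given below, were lower in SI3. The part of these cells in the class II genes was not tested.

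Interferon response genes were lower for 8 of 18, with a median of -0.59. Oasl2 had 1318, 1068 and 995 in SI3 and 2459, 1820.4 and 1946 in SI2, a log2 difference of -0.87 (SE 0.08, adjusted p = 3.13e-05). Usp18 and Ifit3 fell by 0.90 and 0.70, while Irf7 and Mx1 did not pass. Without HF-PO, HF-OO and HF-SO in turn 7, 6 and 6 were lower, and 1 was lower in limma without a variance trend. For MHC class I, 3 of 9 genes fell (7.93% of all genes did), the immunoproteasome subunits Psmb8 and Psmb9 and the peptide transporter Tap1. The calls of Psmb9 and Tap1 were lost whichever pool was left out, and that of Psmb8 without HF-OO. Of this list 1 gene fell when any 1 pool was left out, but without HF-OO it was none of these named genes.

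Among ion transport genes 4 of 17 rose and 5 fell (7.63% and 7.93% of all genes did). Guca2a, guanylin, had 20009, 20668 and 18619.6 in SI3 and 8628, 9115 and 8764 in SI2, a log2 difference of 1.16 (SE 0.08, adjusted p = 4.63e-06), whereas Guca2b, uroguanylin, differed by -0.30 (adjusted p = 0.0367), a call lost whichever pool was left out. Slc9a3, the apical sodium and proton exchanger, had 1139.6, 742 and 1019 in SI3 and 2280.0, 2005 and 2606 in SI2, a log2 difference of -1.25 (SE 0.09, adjusted p = 6.81e-06). Car2, a cytosolic carbonic anhydrase, had 174, 218 and 245 in SI3 and 1383, 1006 and 1041 in SI2, a log2 difference of -2.34 (SE 0.15, adjusted p = 2.31e-06). Slc5a8, a sodium-coupled carrier of short chain fatty acids, rose by 1.67 (SE 0.15), and Slc12a2, which loads chloride for secretion, by 0.81 (SE 0.12). With HF-OO left out 2 genes of the list were lower. Car1, a carbonic anhydrase of the colon, had 77.3, 1292 and 1026 in SI3 and 67.6, 294 and 7.3 in SI2. Its groups overlapped and it did not pass (adjusted p = 0.101), with the palm oil pool low in both parts.

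Tight junction genes rose for 6 of 12 and fell for 1 (7.63% and 7.93% of all genes did). Cldn2, a pore-forming claudin, had 4506, 5793 and 5130.4 in SI3 and 941, 1254 and 1271 in SI2, a log2 difference of 2.14 (SE 0.11, adjusted p = 5.78e-07). Cldn8, a sealing claudin, had 317, 376 and 457 in SI3 and 64.8, 48.1 and 60.4 in SI2, a log2 difference of 2.43 (SE 0.31, adjusted p = 0.000355). Cldn15, another pore former, fell by 0.44, a call lost without HF-OO. Of 14 glycosyltransferases 5 rose, Mgat4c and Gcnt1 most, Gcnt1 with 206, 214 and 234 in SI3 and 64.4, 56.4 and 74.6 in SI2. Without HF-OO 3 of these rose.

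Transcription factors that mark position changed in both directions, 5 of 15 higher and 4 lower. Gata4, which keeps the upper intestine from taking an ileal form in mice, had 852, 599.9 and 719 in SI3 and 1908, 1948 and 1751 in SI2, a log2 difference of -1.36 (SE 0.11, adjusted p = 1.19e-05). Gata6 fell by 0.59. Osr2 had 4153, 4125 and 3915 in SI3 and 2019, 2027 and 1963 in SI2, a log2 difference of 1.01 (SE 0.07, adjusted p = 3.17e-06), and the caudal factor Cdx1 rose by 0.81 (SE 0.07) while Cdx2 overlapped between the parts at -0.05 (adjusted p = 0.838). Without HF-OO 2 factors were higher, and without HF-SO 3.

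Of the Hox genes, which set position along the body axis, 3 of 33 rose, all of the b cluster, or 9.09% of the list beside 7.63% of all genes, so the count is near the background. Hoxb6 had 304, 255 and 279.7 in SI3 and 82.0, 72.8 and 64.5 in SI2, a log2 difference of 1.73 (SE 0.24, adjusted p = 0.000631). Hoxb3 and Hoxb9 rose by 1.24 (SE 0.23) and 1.58 (SE 0.42), but without HF-OO Hoxb6 alone passed. The summed Hox signal was low, 2131 to 2684 in SI3 and 1813 to 2183 in SI2. Among 13 metabolic nuclear receptors and coactivators 1 rose, 3 fell and 9 did not pass, with a median of 0.06 (7.63% and 7.93% of all genes rose and fell). Ppara and Pparg, receptors of fatty acids, fell by 0.55 and 1.39. Ppargc1a, a coactivator that drives mitochondrial genes, had 1223, 1123 and 1099 in SI3 and 2440.1, 2207 and 2404 in SI2, a log2 difference of -1.02 (SE 0.07, adjusted p = 4.45e-06). Ppard rose by 0.48 (SE 0.12), a call lost without HF-PO or HF-SO.

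Clock genes fell for 7 of 15 (7.93% of all genes did), above all the output factors. Dbp had 644, 777 and 480.2 in SI3 and 1988, 2957 and 1744 in SI2, a log2 difference of -1.78 (SE 0.08, adjusted p = 3.57e-07). Hlf, Per3 and Nr1d2 fell by 1.34, 0.85 and 0.49, and Arntl rose by 0.61 (SE 0.17), a call lost without HF-PO or HF-OO. Without HF-OO 4 of the lower genes passed. Both parts come from the same mice, and the time of day of sampling was not used here. Stress genes gave 4 higher and 3 lower of 15, beside 7.63% and 7.93% of all genes. Trib3 differed by -0.72 (adjusted p = 0.000938) and Hspa5 by 0.30 (adjusted p = 0.0237), and without HF-OO 1 stress gene was higher. Hspa5 lost its call without HF-OO or HF-SO.

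Small changes ran through 3 large lists. Cell cycle genes were higher for 12 of 23, with a median of 0.51, and Ccna2, cyclin A2, had 1392, 1668 and 1805 in SI3 and 889, 963 and 1024 in SI2, a log2 difference of 0.74 (SE 0.12, adjusted p = 0.00245). The replication and nucleotide genes Mcm4 and Rrm2 rose by 0.68 (SE 0.13) and 0.59 (SE 0.09), and Pcna did not pass, at 0.03 (adjusted p = 0.887). Without HF-PO, HF-OO and HF-SO in turn 14, 3 and 7 rose. In limma without a variance trend 0 passed, and 13 had an unadjusted p under 0.05.

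Ribosomal protein genes were higher for 25 of 39, with a median of 0.31 and no change of 2-fold, and sums of 652625 to 705951 in SI3 and 524863 to 562564 in SI2. Rps26 had 18929.8, 20977 and 18788 in SI3 and 14072, 14834 and 14052 in SI2, a log2 difference of 0.45 (SE 0.07, adjusted p = 0.00121), a call lost without HF-OO. With limma, 20 passed without HF-PO, 8 without HF-SO and 0 without HF-OO, where 24 had an unadjusted p under 0.05, and 10 passed after quantile normalization. In limma without a variance trend 0 of the 39 passed, and 26 had an unadjusted p under 0.05. Probe sets of these genes may also detect processed pseudogenes. Respiratory chain genes were lower for 22 of 77, with a median of -0.19. Cox7a1, a subunit of cytochrome oxidase, had 3407, 3185 and 3098 in SI3 and 6152, 5681 and 5450.0 in SI2, a log2 difference of -0.83 (SE 0.08, adjusted p = 3.33e-05), and 5 of the list fell without HF-OO and 2 without a variance trend.

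**Figure D4:**
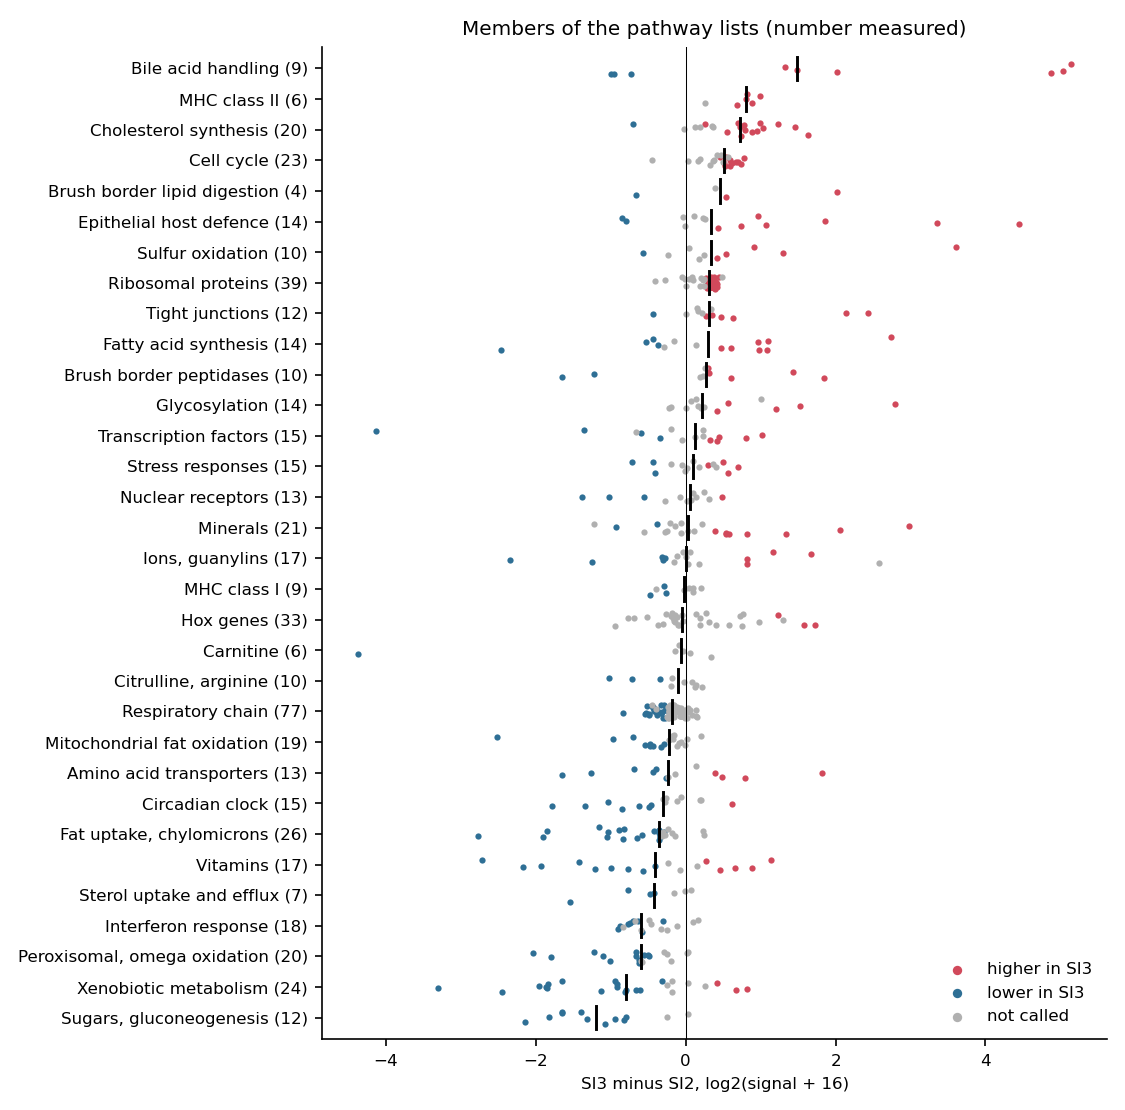
Log2 differences, SI3 minus SI2, of all measured members of the 32 pathway lists, with a black line at each list's median and colours for genes that passed. Bile acid handling has the highest median, 1.49, and sugars and gluconeogenesis the lowest, -1.19.

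The marker lists were chosen with earlier results of these data known, so they describe the parts and are no independent check of the labels. Of 8 distal markers all were higher in SI3, and of 9 proximal markers 6 were lower and Slc40a1, the iron exporter, was higher. General enterocyte markers summed to 200534 to 212430 in SI3 and 181644 to 191430 in SI2, and of these 7 Epcam passed, at 0.37 (adjusted p = 0.00654), a call lost without HF-OO or HF-SO. Colon markers summed to 943 to 2169.8 in SI3 and 747 to 958 in SI2. Of these 6, B3gnt7 alone passed, at 0.42 (adjusted p = 0.0191), a call lost without HF-PO or HF-OO, and Retnlb and Hoxb13 had signals under 10 on every array. Exocrine pancreas markers summed to 546 to 681 in SI3 and 452 to 780.4 in SI2, with Cpa1 between 2.4 and 10.8. Of these 9, Ctrb1 alone passed, at 1.27 (adjusted p = 0.00646).

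Of 9 macrophage markers 8 fell, with a median of -1.07, and Csf1r, the receptor on which macrophages depend, had 935, 1196 and 1085 in SI3 and 2928, 3124 and 2783 in SI2, a log2 difference of -1.45 (SE 0.07, adjusted p = 6.01e-07). The complement genes C1qa, C1qb and C1qc fell by 1.06, 1.26 and 1.09. Lyz2 did not pass, and its probe set may also detect Lyz1 of Paneth cells. The count of lower macrophage markers was 5 without HF-OO.

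Fibroblast and endothelial markers fell for 4 of 6 each, with medians of -1.23 and -1.16. Pdgfra, a receptor of stromal cells under the epithelium, had 190.4, 183 and 162 in SI3 and 745, 887 and 569 in SI2, a log2 difference of -1.93 (SE 0.14, adjusted p = 5.94e-06). Col3a1 fell by 1.44 and the vascular receptor Kdr by 1.26, while the fibroblast genes Dcn and Lum did not pass. Summed signals were 1657 to 2035 in SI3 and 4129 to 4771 in SI2 for fibroblast genes, and 561 to 787 in SI3 and 1180.1 to 1460.3 in SI2 for endothelial genes. Gzma and Gzmb, granzymes of intraepithelial lymphocytes, fell by 0.76 and 1.03, within 4 of 13 T cell genes that fell. Smooth muscle markers, of the layer below the mucosa, were lower for 2 of 10 (7.93% of all genes were), and neither passed without HF-OO.

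Hormone genes of enteroendocrine cells moved by hormone, 4 of 16 higher and 5 lower. Gip, the incretin of the upper intestine, had 1985, 1277 and 1229.6 in SI3 and 6324, 5591 and 5961 in SI2, a log2 difference of -2.01 (SE 0.11, adjusted p = 9.56e-07), and Cck, which releases bile and pancreatic juice, fell by 1.52. Pyy, a hormone of the distal gut, had 2249.7, 1906 and 2132 in SI3 and 1091, 1112 and 1121 in SI2, a log2 difference of 0.91 (SE 0.15, adjusted p = 0.00226), and Gcg, the precursor of GLP-1, differed by 0.65 (adjusted p = 0.00851), a call lost without HF-OO or HF-SO. Chga, a marker of the whole class, overlapped between the parts and did not pass. Without HF-OO 1 hormone gene was higher, Pyy, and 3 were lower.

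Several lists gave little. With limma 0 of 8 tuft cell markers passed, and 1 had an unadjusted p under 0.05. The same count was 0 of 4 for mast cells (2 unadjusted), 0 of 8 for neurons and glia (1 unadjusted), and 0 of 3 and 0 of 2 for adipocytes and erythrocytes (0 unadjusted). Of 7 plasma cell markers 3 were lower and 1 higher, with the antibody joining chain Jchain at -0.82 (adjusted p = 7.53e-05). The calls of Ighm, the higher gene, and Igha were lost whichever pool was left out and that of Tnfrsf17 without HF-OO, where Jchain alone passed. Of 5 markers of the epithelium over lymphoid follicles 2 were higher, Gp2 and Spib, both calls lost whichever pool was left out. Of 9 stem cell markers Axin2, a target of Wnt signalling, passed with 2076, 1634 and 2110.0 in SI3 and 906, 883 and 1141 in SI2, a log2 difference of 0.98 (SE 0.10, adjusted p = 5.76e-05), and Lgr5 did not.

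**Figure D5:**
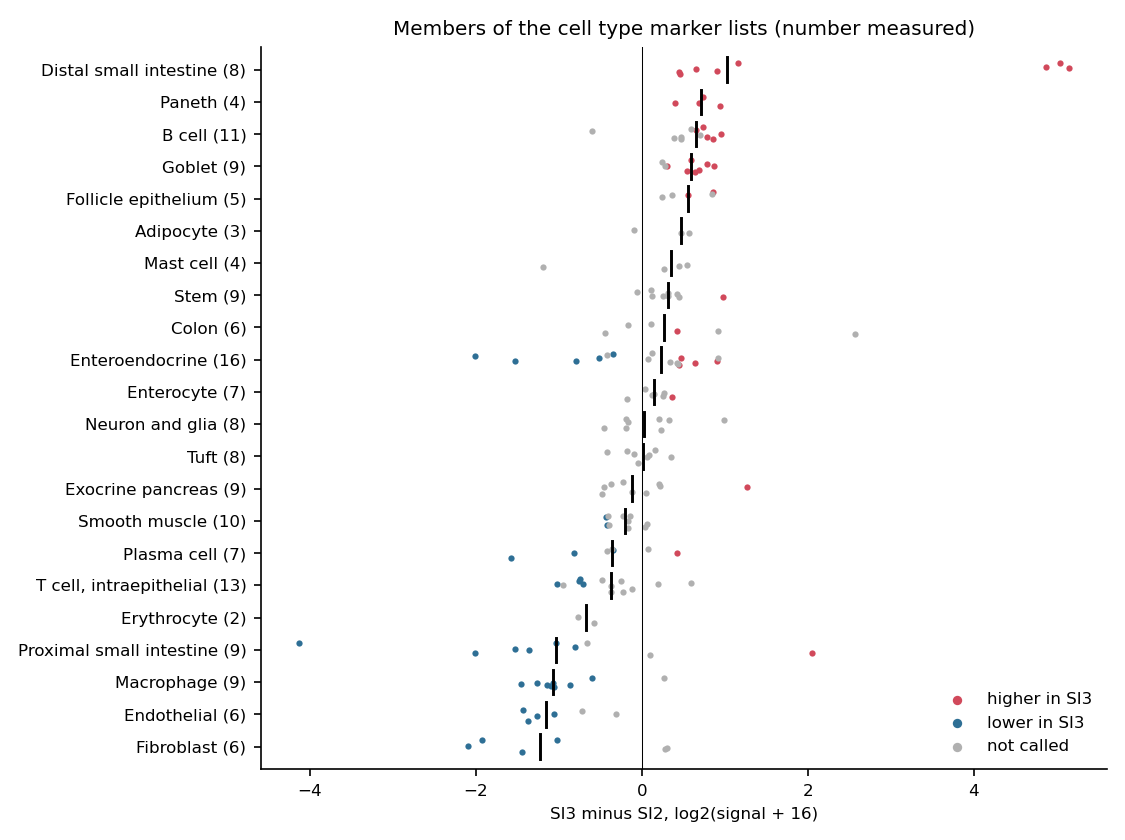
Log2 differences, SI3 minus SI2, of all measured members of the 22 cell type lists, with a black line at each list's median. Distal, Paneth and B cell markers lie highest, and fibroblast, endothelial and macrophage markers lowest.

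Set along all 3 parts, the genes reached their SI3 level by different paths. The SI3 minus SI2 and SI2 minus SI1 differences share the SI2 arrays, so the levels are given side by side. Fabp6 averaged 25.1 ± 19.8 in SI1, 1627 ± 215 in SI2 and 53726 ± 1445 in SI3 (SD, n = 3 pools), and Plb1 12.3 ± 5.86, 2879 ± 376 and 11762 ± 1448. Both climbed at each step. Nr1h4 averaged 587 ± 48.4, 563 ± 45.6 and 2319.8 ± 159.7, level until SI2. Slc40a1 was lowest in the middle, with 13073 ± 1391 in SI1, 334 ± 20.8 in SI2 and 1445 ± 158 in SI3, and Cd36 highest there, with 2050.0 ± 369, 3331 ± 367 and 488 ± 162. Casp6 and Cyp2b10 had like levels in SI1 and SI2, Casp6 with 8296 ± 259 and 8010.0 ± 560.1 and Cyp2b10 with 9640.3 ± 896 and 9889.8 ± 773, and fell at the last step to 955 ± 189 and 1805 ± 192 in SI3. Reg1 went down at both, with 33427 ± 2268, 3507 ± 667 and 266 ± 39.5.

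For called genes, which the test favours when pools agree, the pools nearly always agreed in direction but not always in size. In the HF-PO, HF-OO and HF-SO pools taken alone, 732, 889 and 831 genes were at least 2-fold higher in SI3 (4.02%, 4.89% and 4.57%), and 1256, 1420 and 1022 at least 2-fold lower (6.90%, 7.81% and 5.62%). In all 3 pools alike, 126 genes were 2-fold higher (0.693%) and 242 lower (1.33%). Among called genes the pool differences of Slc10a2, Tbc1d2, Gas8, Sned1 and Gp9 ranged most widely for rises, by 1.82 to 2.21, and those of Tmem178, Il34, Cyp1a1, Onecut2 and Tnfrsf12a for falls, by 2.08 to 2.41. Except for Slc10a2 and Onecut2, their calls were lost without at least 1 pool, and several rest on signals near the bottom of the scale, such as 2.5, 78.1 and 55.3 for Tmem178 in SI3, against 172, 165 and 163 in SI2.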

How the data were processed

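RNA of scraped mucosa was measured on 9 Affymetrix arrays, 6 of them of SI3 and SI2. The authors deposited linear signal intensity, 1 value per probe set and array, credited to MAS5 per the submitters' processing notes. Leaving out 2% at each end, the mean of every array came to 500, so the deposited scaling was kept. Detection calls were not used here. Of 45101 probe sets, 64 array controls were left out. Gene symbols came from the platform's annotation (34945 with 1 symbol, 932 with several and 9160 with none there), and the brightest over 9 arrays stood for a gene. Array number limits the precision.

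Values were log2(signal + 16). limma 3.58.1 in R 4.3.3 fitted part and diet pool as terms on all 9 arrays, with empirical Bayes variances that follow a trend with signal, two-sided tests and Benjamini-Hochberg adjustment over 45037 probe sets. The pool is a block because, per the labels, the same 6 mice gave all parts of a diet. Departures from the part's mean correlated by 0.022 to 0.033 between SI2 and SI3 of a pool. The 3 pools also differ in diet, so the residual (4 degrees of freedom, 2 when a pool is left out) holds differences between diets. The model was run on simulated data with independent normal errors and no pool effect, so diet differences in the residual were not tested. Counts and figures were made in Python 3.11.15 (matplotlib 3.10.9, pandas 2.3.3, numpy 2.4.6).

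The comparison, the 32 pathway and 22 cell type lists and the motifs were chosen with earlier results of these data known, from general knowledge. Named are genes that passed, moved one way in all 3 pools and had a mean signal of at least 100 in SI3 or SI2: the 15 largest rises and falls, the 5 largest each way in linear signal and the 5 each way whose pools ranged most widely, besides list members. Of 381 such genes that passed, 181 had another probe set, which was called the same way for 114 and the opposite way for 0. Genes of the lists that are not mentioned as measured were not analysed here. The alternatives were another pseudocount, a signal filter, other scalings, fewer arrays, no pool term, no variance trend and leaving out each pool.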

Additional observations from a re-analysis of the deposited data

Results flagged for a closer look

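For 6 genes of the lists the difference between SI3 and SI2 ran in opposite directions, by 1.5-fold or more each way, in different diet pools. Each pool is 1 array per part, so the difference between pools was not tested. The T cell genes were Cd160, with a log2 difference of 0.91 in HF-SO and -0.70 in HF-OO, and Cd3e, with 0.71 in HF-OO and -1.90 in HF-PO. The pancreatic protease genes were Cela3b, with 0.95 in HF-SO and -0.75 in HF-OO, and Prss2, with 0.78 in HF-SO and -2.41 in HF-OO. Pax5, a transcription factor of B cells, gave 0.64 in HF-SO and -2.17 in HF-PO, and the ribosomal protein gene Rps27 gave 0.82 in HF-SO and -1.72 in HF-OO. None of the 6 passed the test over the pools.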

How the results depend on the processing

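None of the 381 called genes of the lists and rules turned direction under the alternatives tried, but for most alternatives this was fixed in advance. Fits without the pool term, the variance trend or the SI1 arrays keep the same difference. A gene that moved one way in all 3 pools keeps its direction when a pool is left out. Without a variance trend, limma called 1681 probe sets (619 higher in SI3, 1062 lower) and 964 genes (349 and 615). With that model on the probe sets at or above the median mean signal, an alternative chosen after seeing the data, it called 4787 probe sets and 2567 genes. A pseudocount of 64 left 229 higher and 431 lower probe sets of 2-fold or more, and 133 and 279 genes, since a larger pseudocount shrinks differences of low signals. Leaving out each pool gave 1911 to 3978 probe sets (787 to 1939 higher, 1124 to 2039 lower, 502 to 675 lower by 2-fold or more) and 1142 to 2280 genes (457 to 1098 higher, 685 to 1182 lower), with 2 residual degrees of freedom in place of 4. The lowest counts came without HF-OO, and the cause was not tested. Without the pool as a block, 5187 probe sets and 2859 genes were called, so the pairing moved the counts little. Equal array medians gave 1563 higher and 1217 lower genes. Of the 381 genes, 211 were lost without the trend, 28 under quantile normalization, 27 under equal array medians, 14 without the block, 7 with the 6 arrays alone, 2 and 6 with pseudocounts of 1 and 64, and 49, 151 and 98 without HF-PO, HF-OO and HF-SO. Of the 369 at or above the median mean signal, the added model lost 41. Signals near the bottom of the scale carry little information.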
